A study of Mus musculus with 3 samples.

Results

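The T cell receptor variable (V) genes comprise 104 of the 22954 genes in the tables of this series, namely every gene whose symbol starts with Trav, Trbv, Trdv or Trgv. They include 75 Trav, 23 Trbv, 5 Trdv and 1 Trgv gene. They were examined in CD3 cells, which are the 3616 of 19615 lung cells with at least 1 of Cd3e, Cd3g and Cd3d (signalling chains of the receptor complex) above 0, and the remaining cells served as background. Lungs of wild-type female C57BL/6J mice were analysed by droplet-based single cell RNA sequencing 5 months after the thorax had received 13 Gy. The CONV mouse received electrons at a conventional dose rate, the FLASH mouse received them at an ultra-high dose rate, and the CONV AsiDNA mouse received the conventional dose rate with AsiDNA, a short DNA molecule that mimics a double-strand break, given as 100 mg/kg daily for 2 days and as 200 mg/kg on the irradiation day. All 3 mice were thus irradiated, and unirradiated lungs were not analysed here. Each condition is 1 library from 1 mouse, so no test between conditions was possible, and condition, mouse and library cannot be told apart. Every interval below is an exact 95% interval that covers the sampling of cells only. Libraries are said to lie apart where their intervals do not overlap, and 3 values in a row stand for CONV, then CONV AsiDNA, then FLASH.

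A T cell assembles its receptor by joining a V segment to downstream segments of the same locus, so that an alpha beta T cell carries a Trav and a Trbv sequence in its receptor and a gamma delta T cell carries a Trgv or Tcrg-V and a Trdv sequence. The V segment lies at the 5′ end of the transcript, ahead of the CDR3 loop that contacts antigen, and the constant genes (Trac, Trbc1, Trbc2, Trdc and the Tcrg-C genes) lie at the 3′ end. The libraries were made with a 3′ chemistry, in which reads start from the end far from the V segment, so a cell in which no V gene is above 0 may still carry a receptor. Most alpha beta T cells carry the coreceptor CD4 or CD8, and gamma delta T cells of mucosal tissues include early-born populations with a fixed V gene pair that produce interleukin 17.

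The V genes that the results turn on are shown by the last 60 annotated bases of their second, coding exon, the end that is joined in the rearranged gene. The sequences come from the GENCODE M21 transcripts of GRCm38, run 5′ to 3′ on the strand of the gene, and carry in capitals the codon of the conserved cysteine that opens the CDR3. Trdv4 lies at chr14:54075456-54075515 on the plus strand, Tcrg-V6 at chr13:19190870-19190929 on the plus strand, Trgv2 at chr13:19336573-19336632 on the minus strand, Trbv2 at chr6:41047936-41047995 and Trbv12-2 at chr6:41119305-41119364, both on the plus strand.
Trdv4: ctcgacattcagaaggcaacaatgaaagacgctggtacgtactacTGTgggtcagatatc
Tcrg-V6: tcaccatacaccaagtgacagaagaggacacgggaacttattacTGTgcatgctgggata
Trgv2: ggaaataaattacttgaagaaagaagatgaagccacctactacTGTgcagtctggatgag
Trbv2: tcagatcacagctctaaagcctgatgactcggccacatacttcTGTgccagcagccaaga
Trbv12-2: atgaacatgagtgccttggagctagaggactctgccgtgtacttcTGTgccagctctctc

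The Trav genes differ from the others in being copied in blocks along the locus, and 3 members of the Trav16 subgroup are shown because their ends are almost the same. They lie on the plus strand of chromosome 14, Trav16 at chr14:53743646-53743705, Trav16n at chr14:53351562-53351621 and Trav16d-dv11 at chr14:53047762-53047821. Counted from 1 at the first base shown, Trav16n differs from Trav16 by T10C, and Trav16d-dv11 differs from Trav16 by T10C and A31G. Trav11, the alpha segment of invariant natural killer T cells, is shown beside them and lies at chr14:53519800-53519859 on the plus strand.
Trav16: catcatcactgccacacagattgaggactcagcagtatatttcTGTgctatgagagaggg
Trav16n: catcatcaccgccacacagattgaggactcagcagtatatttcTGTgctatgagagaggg
Trav16d-dv11: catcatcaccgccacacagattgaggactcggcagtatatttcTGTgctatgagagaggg
Trav11: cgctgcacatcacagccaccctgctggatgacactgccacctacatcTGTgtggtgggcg

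Over the last 250 bases of the transcript, 34 of the 75 Trav genes were at least 98% identical to another annotated V gene, and 57 were at least 95% identical. None of the 23 Trbv genes reached 95%, and the closest pair, Trbv13-2 and Trbv13-3, was 91.2% identical. Trav16 and Trav16n were 98.8% identical over this stretch. Reads of such Trav copies can be divided among them or lost in alignment, so Trav genes are described by subgroup (the number after Trav, with all copies together) and single Trav genes are uncertain. The Trav genes span chr14:52427928-53927595, the Trbv genes chr6:40891229-41558452 and the Trdv genes chr14:53881612-54149294.

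The libraries gave 1409 CONV, 986 CONV AsiDNA and 1221 FLASH cells with a CD3 gene, with a median of 3293, 3558 and 3505 adjusted counts per cell, the whole numbers recovered from the deposited logarithms. Of these cells, 1369, 957 and 1173 fell in clusters named T-like from their markers, and Trbc2, a constant gene of the beta chain, was above 0 in 90.9%, 95.5% and 94.3%. Of the 104 V genes, 57 were above 0 in the CONV library, 58 with CONV AsiDNA and 70 with FLASH, 44 in all 3 libraries and 24 in none. In CD3 cells, 80 were above 0, comprising 54 Trav, 21 Trbv, 4 Trdv and 1 Trgv gene, of which 3 are annotated as pseudogenes. Only 25 V genes were above 0 in at least 20 CD3 cells, so most members rest on very few cells. No V gene was above 0 in exactly 1 cell of a library, although 450, 375 and 377 genes in all were. Whether V genes seen in 1 cell were set to 0 before deposit was not tested, and if so the numbers of V genes above 0 are too low and those in none too high.

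Alpha and beta V genes were seen in a minority of CD3 cells in every library, and delta V genes were most frequent in CONV. At least 1 Trav gene was above 0 in 226 CD3 cells of CONV (16.04%, 14.2 to 18.1), 195 of CONV AsiDNA (19.8%, 17.3 to 22.4) and 238 of FLASH (19.5%, 17.3 to 21.8). At least 1 Trbv gene was above 0 in 217 (15.4%, 13.6 to 17.4), 167 (16.9%, 14.6 to 19.4) and 232 cells (19.0%, 16.8 to 21.3). CONV was lowest for both chains, and the intervals of the 3 libraries overlapped. Trgv2 was above 0 in 219 (15.5%), 152 (15.4%) and 154 (12.6%) cells, also with overlapping intervals. A Trdv gene was above 0 in 161 cells of CONV (11.4%, 9.81 to 13.2), 39 of CONV AsiDNA (3.96%, 2.83 to 5.37) and 39 of FLASH (3.19%, 2.28 to 4.34). The Trdv share of CONV lay above and apart from both other libraries, and those 2 overlapped. Any of the 104 genes was above 0 in 47.7%, 45.8% and 45.4% of the CD3 cells.

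**Figure D1:**
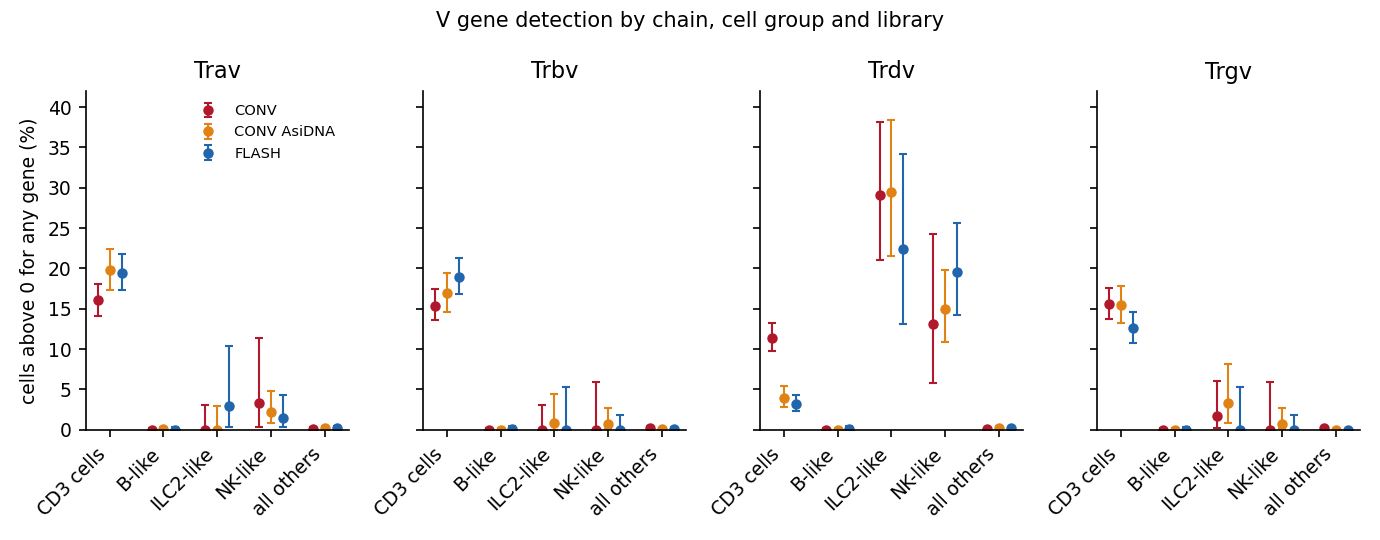
Share of cells (%) with at least 1 V gene of each chain above 0, by library, in CD3 cells and in cells without CD3 genes. Points are shares and bars are exact 95% intervals over cells, and the Trdv share of CONV CD3 cells (11.4%) lies above those of CONV AsiDNA (3.96%) and FLASH (3.19%).

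The level within a cell was low for the alpha and beta chains. Where a Trbv gene was above 0 the value was 1 in 87.6%, 90.9% and 85.8% of cases, and for Trav genes in 77.3%, 74.8% and 75.3%. Trdv and Trgv genes were at 1 in a smaller share, 31.5%, 23.1% and 47.5% for Trdv and 35.2%, 38.2% and 42.2% for Trgv2. Alpha and beta genes were above 0 in a larger share of the deeper cells, those with larger adjusted totals, but not always with intervals apart. Trbv genes were above 0 in 12.6%, 13.4% and 16.4% of the CD3 cells at or below the median total of their library and in 18.2%, 20.5% and 21.6% of the deeper ones. These intervals were apart in CONV and CONV AsiDNA and overlapped in FLASH. For Trav genes the shares were 13.3%, 18.2% and 17.8% against 18.8%, 21.3% and 21.1%, with overlapping intervals in every library. Trdv4 was not more frequent in deeper cells, with 11.3%, 4.66% and 2.13% at or below the median and 8.66%, 2.03% and 2.13% above it.

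B-like cells, which carry rearranged antibody genes in place of T cell receptors, gave the background. With a median of 2829, 2963 and 3040 adjusted counts, 0 of 1345, 1 of 1600 and 2 of 1153 B-like cells without CD3 genes had any V gene above 0. In the other cells without CD3 genes, B-like, ILC2-like and NK-like cells left out, the share was 0.465%, 0.574% and 0.524%. The alpha and beta shares of CD3 cells were far above these.

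Delta V genes were also above 0 in 2 innate lymphoid classes that had none of the 3 CD3 genes. ILC2-like cells, named from markers of group 2 innate lymphoid cells such as Il1rl1 and Gata3, had a Trdv gene above 0 in 34 of 117 cells for CONV (29.1%, 21.04 to 38.2), 36 of 122 for CONV AsiDNA (29.5%, 21.6 to 38.4) and 15 of 67 for FLASH (22.4%, 13.1 to 34.2). Nearly all of it was Trdv4, in 34, 36 and 14 cells. NK-like cells, named from natural killer cell markers such as Ncr1, had a Trdv gene above 0 in 8 of 61 (13.1%), 40 of 267 (14.98%) and 39 of 200 cells (19.5%), with Trdv4 in 4, 35 and 32 of them. Within each class the 3 libraries overlapped, so CONV did not stand apart there. A Trav gene was above 0 in 0, 0 and 2 ILC2-like and in 2, 6 and 3 NK-like cells, and a Trbv gene in 0, 1 and 0 ILC2-like and 0, 2 and 0 NK-like cells. The median value of Trdv4 in cells without CD3 genes was 1, and the highest was 6, 5 and 3.

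Trdv4, the delta segment of an early-born tissue gamma delta T cell population, was the V gene that set CONV apart. It was above 0 in 141 CD3 cells of CONV (10.0%, 8.49 to 11.7), 33 of CONV AsiDNA (3.35%, 2.31 to 4.67) and 26 of FLASH (2.13%, 1.40 to 3.10). Of the 25 V genes above 0 in at least 20 CD3 cells, it was the only one for which a library lay apart from both others. Among all 9958 genes above 0 in at least 20 CD3 cells, CONV lay above and apart from both others for 3.88% and below and apart for 9.73%. The shares above and below were 5.11% and 1.32% for CONV AsiDNA and 1.54% and 4.18% for FLASH. The 1 V gene of 25 with CONV above and apart is close to the share of all genes in that direction, and 0 of the 25 lay apart in any of the other directions. Where it was above 0 its median value was 4, 4 and 3.5, so the libraries differed in how many cells carried it and little in the value per cell. Of all cells kept, whatever their type, CD3 cells with Trdv4 made up 2.21%, 0.473% and 0.415%.

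On the scale of adjusted CPM (adjusted counts per 1000000 of the sum over CD3 cells), the level of Trdv4 was 144 with CONV, 41.7 with CONV AsiDNA and 22.9 with FLASH. The log2 ratio of these levels plus 10 was 1.58 for CONV over CONV AsiDNA, 2.23 for CONV over FLASH and 0.65 for CONV AsiDNA over FLASH. Trdv4 was the only 1 of the 32 V genes with a sum of at least 20 that was past 2-fold in the first and in the second comparison, and none was past 2-fold in the last. Among all 10167 genes with such a sum, 1.02% were more than 2-fold higher in CONV than in CONV AsiDNA and 0.964% more than 2-fold lower. Against FLASH the shares were 1.35% and 0.629%, and between CONV AsiDNA and FLASH 0.59% and 0.354%. No statement about the V genes as a set rests on that count. Their median log2 ratio was 0.00, -0.05 and -0.02, beside -0.03, 0.04 and 0.06 for all genes tested.

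Most CD3 cells with Trdv4 (95.04%, 97.0% and 88.5%) also had the delta constant gene Trdc above 0. The Trdc gate takes CD3 cells with Trdc above 0 and with Cd4 and Cd8b1 at 0, and it held 169 CONV, 64 CONV AsiDNA and 58 FLASH cells. Trdv4 was above 0 in 133 of them for CONV (78.7%, 71.7 to 84.6), 30 for CONV AsiDNA (46.9%, 34.3 to 59.8) and 22 for FLASH (37.9%, 25.5 to 51.6). Outside the gate it was above 0 in 8, 3 and 4 CD3 cells. Within the gate CONV lay above and apart from the other libraries, and those 2 overlapped. With each cell thinned to 1000 adjusted counts the shares were 54.4% (46.6 to 62.1), 34.4% (22.9 to 47.3) and 17.2% (8.59 to 29.4), and CONV was then apart from FLASH only. Trac, the alpha constant gene, was above 0 in 23.3%, 13.3% and 31.8% of the gate cells with Trdv4. Trbc2, a beta constant gene, was above 0 in most of the same cells, with 78.9%, 86.7% and 90.9%. The other beta constant gene, Trbc1, was above 0 in fewer of them than Trbc2 in each library. Transcripts of a beta constant gene were thus frequent in gate cells with Trdv4. A Trav or Trbv gene was above 0 in 5.92%, 9.38% and 24.1% of all gate cells.

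Trdv4 was singled out for its high share in CONV, so the split of the Trdc gate by Trdv4 restates that share and is given as a description. Gate cells with Trdv4 were 9.44% of CD3 cells for CONV (7.96 to 11.1), 3.04% for CONV AsiDNA (2.06 to 4.32) and 1.80% for FLASH (1.13 to 2.72). Gate cells without Trdv4 numbered 36, 34 and 36, or 2.56% (1.80 to 3.52), 3.45% (2.40 to 4.79) and 2.95% (2.07 to 4.06). The first group was higher in CONV and apart from both others, and the second overlapped in all 3 libraries.

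**Figure D2:**
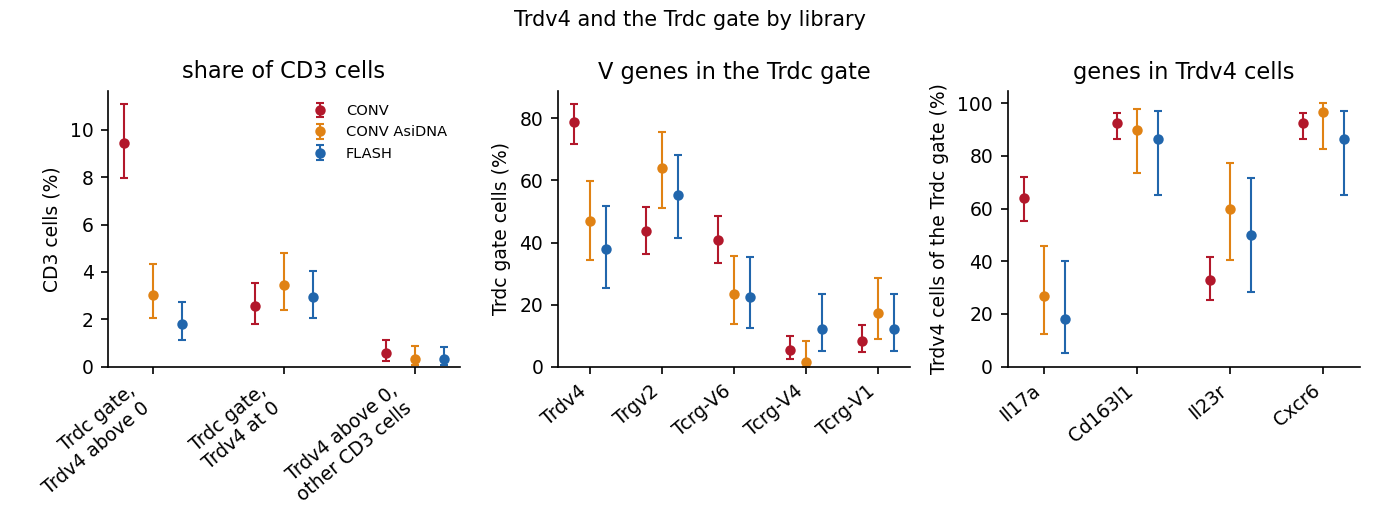
Trdv4 and the Trdc gate in the 3 libraries, as shares of cells (%) with exact 95% intervals over cells. Gate cells with Trdv4 make up 9.44% of CD3 cells in CONV, above CONV AsiDNA (3.04%) and FLASH (1.80%), and gate cells without Trdv4 lie between 2.56% and 3.45% with overlapping intervals.

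Tcrg-V6, the gamma segment known to pair with the Trdv4 chain, has a symbol outside the rule for the members. It was above 0 in 72, 16 and 14 CD3 cells, a higher share for CONV and apart from both other libraries. In the Trdc gate the shares were 40.8%, 23.4% and 22.4%, and there the interval for CONV (33.3 to 48.6) overlapped those for CONV AsiDNA (13.8 to 35.7) and FLASH (12.5 to 35.3). It was above 0 in 47.5%, 42.4% and 46.2% of the CD3 cells with Trdv4. The intervals of these 3 shares overlapped. Tcrg-V1 and Tcrg-V4, which mark other gamma delta T cells, were above 0 in 8.28%, 17.2% and 12.1% and in 5.33%, 1.56% and 12.1% of the gate.

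Genes known from interleukin 17-producing T cells were compared between gate cells with and without Trdv4. Cd163l1, a scavenger receptor of such gamma delta T cells, was above 0 in 92.5%, 90.0% and 86.4% of them, against 30.6%, 26.5% and 2.78% of the gate cells without Trdv4, with intervals apart in every library. The chemokine receptor gene Cxcr6 was above 0 in 92.5%, 96.7% and 86.4% of the gate cells with Trdv4 and in 55.6%, 67.6% and 50.0% of those without, with overlapping intervals for FLASH. Il17a, the cytokine itself, was above 0 in 63.9% (55.1 to 72.0), 26.7% (12.3 to 45.9) and 18.2% (5.19 to 40.3) of the gate cells with Trdv4, and CONV was highest and apart from both others. In the gate cells without Trdv4 it was above 0 in 19.4%, 14.7% and 8.33%, which overlapped the shares with Trdv4 for CONV AsiDNA and FLASH. Il23r, the receptor gene for interleukin 23, was above 0 in 33.1% (25.2 to 41.8), 60% (40.6 to 77.3) and 50.0% (28.2 to 71.8) of the gate cells with Trdv4, and the interval of CONV overlapped both others. Without Trdv4 the shares of Il23r were 22.2%, 23.5% and 11.1%, overlapping those with Trdv4 for CONV and CONV AsiDNA. None of these genes defines the gate. Cd163l1 was chosen after its values were seen, and the others belong to a list of innate-like T cell genes.

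The remaining delta genes were rare. Trdv2-2 was above 0 in 12, 0 and 6 CD3 cells, Trdv1 in 5, 3 and 3, Trdv5 in 4, 3 and 5, and Trdv3 in none. Trdv5 was in the Trdc gate in 2, 2 and 3 cells and Trdv2-2 in 2, 0 and 0. Trdv2-2 is 97.6% identical over its last 250 bases to Trdv2-1, an annotated gene that is not among the members. For Trdv2-2 the interval of CONV (0.441 to 1.48% of CD3 cells) lay above that of CONV AsiDNA (0 to 0.373%), and that of FLASH overlapped both. The counts of Trdv1 and Trdv5 overlapped between the libraries.

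Trgv2, a gamma segment on chromosome 13, was not confined to the Trdc gate. In the Trdc gate it was above 0 in 74 (43.8%), 41 (64.1%) and 32 cells (55.2%), and in the other CD3 cells in 145 (11.7%), 111 (12.04%) and 122 (10.5%). The gate therefore held fewer Trgv2 cells than the rest in every library, though the share was higher in the gate. Among CD3 cells with none of Cd4, Cd8a and Cd8b1 above 0, which include most cells of the gate, Trgv2 was above 0 in 159 of 756 (21.03%), 114 of 460 (24.8%) and 113 of 487 (23.2%). Most of the cells with Trgv2 thus had no coreceptor gene above 0. Its level was 128, 103 and 91.5 adjusted CPM in CD3 cells. Trgv2 was also above 0 in 41.1%, 63.6% and 50.0% of the CD3 cells with Trdv4, so both gamma genes were seen beside it.

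Among cells with a coreceptor, Trgv2 was most frequent in those with CD8 and effector genes. In the Cd4 gate (Cd4 above 0, Cd8a and Cd8b1 at 0) it was above 0 in 8 of 259 (3.09%), 3 of 165 (1.82%) and 8 of 244 cells (3.28%). In the Cd8 gate (Cd8a or Cd8b1 above 0, Cd4 at 0) it was above 0 in 52 of 367 (14.2%), 35 of 347 (10.1%) and 33 of 479 cells (6.89%). The Cd8 gate was higher in all 3 libraries, with a mean over libraries of 10.4% (mean bounds 7.56 to 13.8) against 2.73% (1.05 to 5.86). Among all 9958 genes, 1.48% were separated in this way with the Cd8 gate higher and 4.31% with the Cd4 gate higher. Of the 16 V genes or subgroups with at least 20 cells in these gates, Trgv2 was the only 1 with the Cd8 gate higher. No statement about the V genes as a set rests on that count. In the naive gate, with more of a list of naive T cell genes (Lef1, Ccr7, Dapl1 and Igfbp4 among them) than of Ccl5, Nkg7, Gzmk, Gzma and Gzmb above 0, Trgv2 was above 0 in 1.94%, 0.395% and 0.704% of cells. In the effector gate, the reverse, it was above 0 in 19.8%, 20.1% and 16.7%. Within each library these last intervals did not overlap. A separation with the effector gate higher held for 10.6% of all genes and with the naive gate higher for 2.18%, and the effector cells had the smaller totals, with medians of 3216, 3524 and 3348.5 adjusted counts against 3430, 3596 and 3544.

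The share was high in Cd8 effector cells and low in naive cells of either gate. In Cd8 effector cells Trgv2 was above 0 in 42 of 158 (26.6%), 30 of 130 (23.1%) and 27 of 143 (18.9%), and in Cd8 naive cells in 4 of 173 (2.31%), 1 of 171 (0.585%) and 2 of 299 (0.669%). In Cd4 effector cells the shares were 6.33%, 6.90% and 9.30%, with intervals apart from those of Cd8 effector cells for CONV and overlapping for CONV AsiDNA and FLASH. In Cd4 naive cells they were 1.18%, 0% and 0.787%, overlapping with Cd8 naive cells in every library and above them for FLASH. The Cd8 gate was thus higher in effector cells of every library, but with intervals apart for CONV only. In naive cells the order of the gates was not resolved. In the Cd4 gate with Foxp3, the regulatory T cell factor, it was above 0 in 0 of 82 cells over the 3 libraries. Among the T-like clusters, Trgv2 was most frequent in the one led by Cd163l1, with 124 of 336 (36.9%), 106 of 243 (43.6%) and 78 of 190 CD3 cells (41.1%). It was above 0 in 80 of 352, 39 of 287 and 55 of 292 of the cluster led by Gzmk, and in 2 of 338, 0 of 243 and 1 of 443 of the cluster led by Dapl1, a gene of naive T cells.

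Within the Cd8 gate, cells with Trgv2 carried the neighbouring gamma constant gene and in most cases the alpha constant gene. Tcrg-C2, on the same strand at chr13:19304649-19307551, was above 0 in 63.5%, 88.6% and 69.7% of the cells with Trgv2 and in 2.86%, 3.85% and 2.24% of those without. Trac was above 0 in 75.0%, 94.3% and 100.0% of the cells with Trgv2 and in 76.8%, 85.9% and 74.9% of those without, with intervals apart for FLASH. Trdc was above 0 in 7.69%, 2.86% and 3.03% against 1.27%, 1.28% and 1.57%. Gzmk, a granule protease of memory CD8 cells, was above 0 in 44.2%, 51.4% and 66.7% against 20.95%, 17.0% and 17.5%, and Ccr7, the lymph node homing receptor, in 9.62%, 2.86% and 6.06% against 49.5%, 58.3% and 70.4%. Gzmk and Ccr7 belong to the naive and effector lists, so these values restate the gates within the Cd8 cells, while Tcrg-C2 does not. Trgv2 is 94.0% identical to Tcrg-V3 and 93.6% to Tcrg-V1 over its last 250 bases, and whether reads passed between them was not tested.

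**Figure D3:**
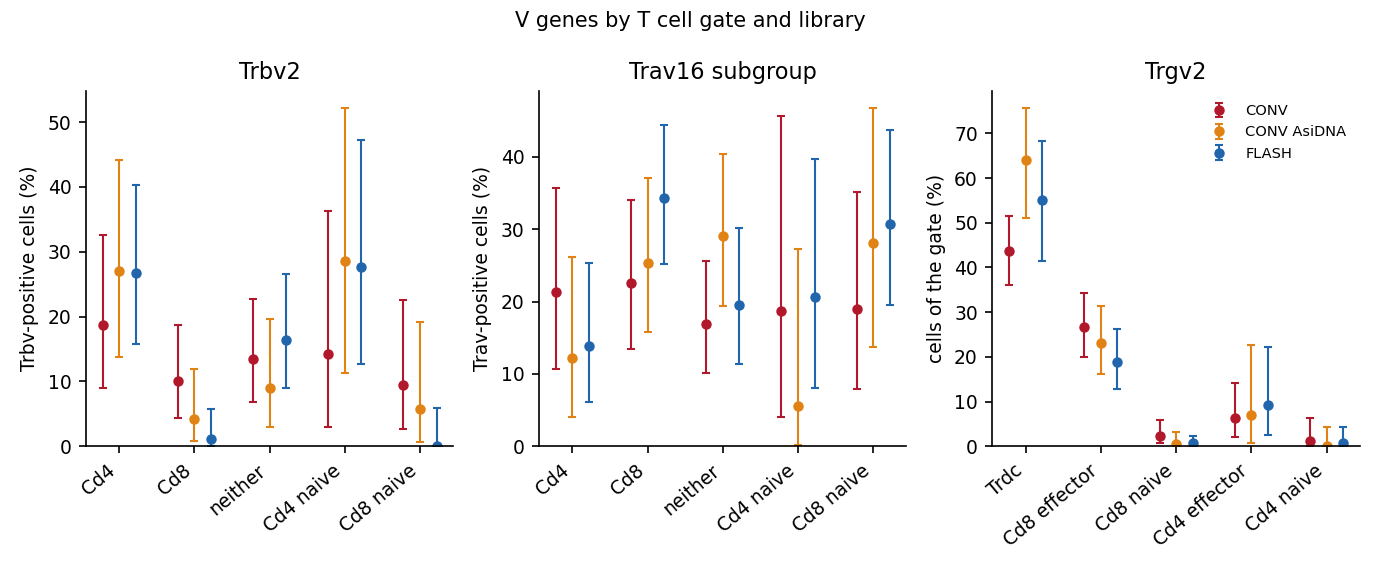
V genes by T cell gate, as shares of cells (%) with exact 95% intervals over cells in each library. Trgv2 is drawn for the Trdc gate and for effector and naive cells of the Cd8 and Cd4 gates. It is above 0 in a larger share of Cd8 effector than of Cd8 naive cells in all 3 libraries. Trbv2 is more frequent among Trbv-positive Cd4 gate cells than among Cd8 gate cells in all 3 libraries.

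The other genes of the receptor pathway show how the CD3 cells of the libraries differed. Of the 4 gamma and delta constant genes above 0 in at least 20 CD3 cells, Trdc was the only one for which CONV lay above and apart, with 12.6%, 7.20% and 5.65% of CD3 cells, and Tcrg-C1 had FLASH below and apart, with 18.0%, 15.1% and 9.58%. Among all genes CONV lay above and apart for 3.88% and FLASH below and apart for 4.18%. Of the 3 alpha and beta constant genes, CONV lay below and apart for Trbc2. Against the 9.73% of all genes for which CONV lay below and apart, it did so for 4 of 12 receptor signalling genes (Lck, Cd28, Cd5 and Themis). It also did so for the coreceptor genes Cd8a and Cd8b1 and the naive T cell genes Lef1 and Ccr7. For Lef1 and Ccr7 FLASH also lay above and apart from both others. The rest of those lists is not reported here, so these genes are not set against that share. Cd8b1 was above 0 in 26.8%, 35.5% and 39.3% and Ccr7 in 23.6%, 34.0% and 41.4% of CD3 cells. CONV also had the smallest Cd8 gate (26.0%, 35.2% and 39.2% of CD3 cells) and naive gate (18.3%, 25.7% and 34.9%). For the naive gate every library lay apart from the others, with FLASH highest. The Cd4 gate overlapped between the libraries (18.4%, 16.7% and 20.0%). The part of these differences in the V gene shares was not tested. Of the 8 B cell markers, Cd79a and Ms4a1 were highest in FLASH (1.64% and 1.56% of CD3 cells) and Ighm in CONV AsiDNA (3.35%).

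Beta V gene usage was spread over many genes, and no gene set a library apart. Among Trbv-positive CD3 cells Trbv12-2 was above 0 in 27 (12.4%), 21 (12.6%) and 35 cells (15.1%), and Trbv2 in 29 (13.4%), 18 (10.8%) and 31 cells (13.4%). By the mean over libraries Trbv3 followed with 20, 20 and 20 cells and Trbv19 with 17, 15 and 17. Single libraries departed from this order, with Trbv3 above Trbv2 in CONV AsiDNA and Trbv26 level with Trbv3 in CONV. The 10 most frequent genes, which also include Trbv13-2, Trbv1, Trbv13-1, Trbv26, Trbv13-3 and Trbv20, summed to 79.4% as the mean over libraries. For none of the 14 Trbv genes with at least 20 cells did a library lie apart from both others. The widest spread among the 10 was in Trbv26, with 20 (9.22%), 5 (2.99%) and 13 cells (5.60%), in Trbv1, with 16 (7.37%), 5 (2.99%) and 18 (7.76%), and in Trbv13-1, with 8 (3.69%), 16 (9.58%) and 11 (4.74%). The intervals of these 3 genes overlapped between libraries.

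The evenness of usage was measured by the Simpson index. The Simpson index, here the percentage of pairs of cells that would show the same Trbv gene, was 7.32 with CONV, 6.85 with CONV AsiDNA and 7.43 with FLASH. In the Cd4 gate it was 9.81, 9.24 and 11.1, and in the Cd8 gate 6.41, 8.11 and 6.78. It was higher in the Cd4 gate in all 3 libraries, but no interval was computed. The values rest on 47, 35 and 55 cells of the Cd4 gate and 74, 66 and 92 of the Cd8 gate. Trbv2 was the most frequent gene in the Cd4 gate of each library, so this order is not separate from that of Trbv2 below. No Trbv gene took more than 15.1% of the Trbv-positive cells of a library.

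**Figure D4:**
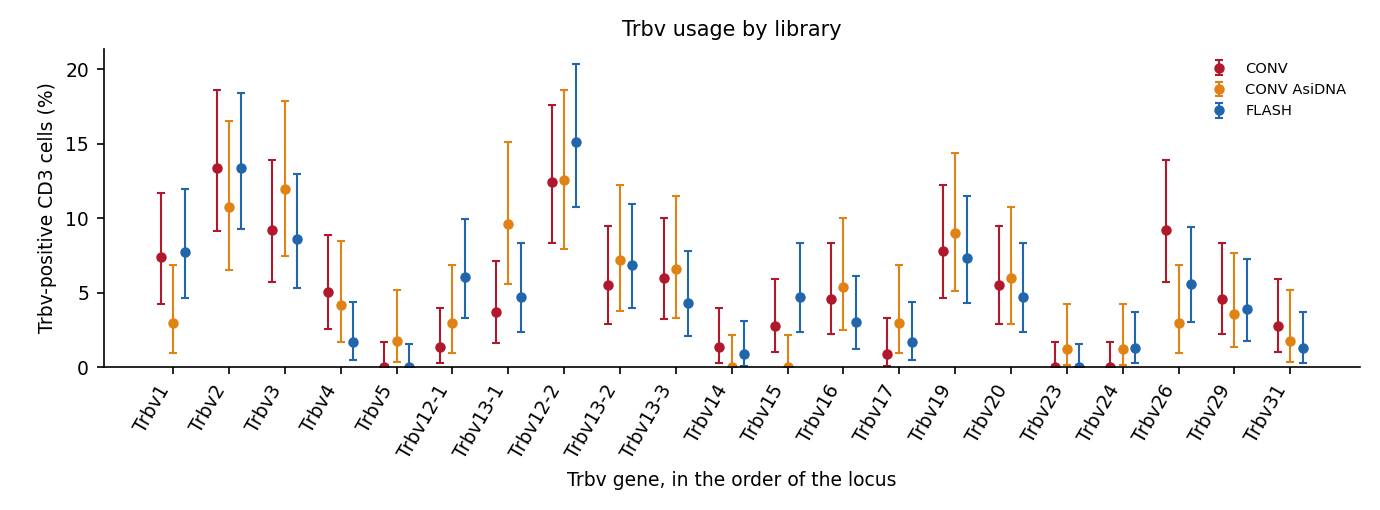
Share of Trbv-positive CD3 cells (%) above 0 for each Trbv gene, by library, with exact 95% intervals over cells. Trbv12-2 (12.4% to 15.1%) and Trbv2 (10.8% to 13.4%) lead by the mean over libraries, with Trbv3 above Trbv2 in CONV AsiDNA. No gene with at least 20 cells has a library apart from both others.

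Trbv2 was more frequent in the Cd4 gate than in the Cd8 gate of each library. Among Trbv-positive cells of the Cd4 gate it was above 0 in 9 of 48 for CONV (18.8%, 8.95 to 32.6), 10 of 37 for CONV AsiDNA (27.0%, 13.8 to 44.1) and 15 of 56 for FLASH (26.8%, 15.8 to 40.3). Among those of the Cd8 gate it was above 0 in 8 of 80 (10.0%, 4.42 to 18.8), 3 of 71 (4.23%, 0.880 to 11.9) and 1 of 94 (1.06%, 0.0269 to 5.79). The gates were apart in CONV AsiDNA and FLASH and overlapped in CONV. The mean over libraries was 24.2% (mean bounds 12.9 to 39.0) against 5.10% (1.77 to 12.1). Of the 7 Trbv genes and 8 Trav subgroups with at least 20 cells in these gates, Trbv2 was the only 1 of 15 with this separation, beside 4.31% of all genes with the Cd4 gate higher, so a single gene of this kind is not far from the background. The separation of the bounds was lost, with the direction kept, when only cells with exactly 1 Trbv gene were used, when the gates were replaced by clusters, and when a value of at least 2 was required. Naive cells showed the same order, with 3 of 21, 6 of 21 and 8 of 29 in Cd4 naive cells against 4 of 42, 2 of 35 and 0 of 60 in Cd8 naive cells, and the intervals overlapped for CONV and CONV AsiDNA. Effector cells were too few to show an order, with 2 of 12, 0 of 9 and 2 of 7 in Cd4 effector cells against 2 of 26, 0 of 27 and 1 of 29 in Cd8 effector cells. In cells with neither coreceptor, Trbv2 was above 0 in 13.4%, 8.93% and 16.5% of the Trbv-positive cells.

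Alpha V gene usage was led by the Trav16 subgroup. It was above 0 in 43 (19.0%, 14.1 to 24.8), 46 (23.6%, 17.8 to 30.2) and 58 (24.4%, 19.1 to 30.3) Trav-positive CD3 cells, mostly through Trav16n (24, 30 and 37 cells) and Trav16 (19, 15 and 21). Trav6 was above 0 in 35, 33 and 33 cells and Trav14 in 37 (16.4%), 17 (8.72%) and 23 (9.66%). Trav13, Trav4, Trav3, Trav8, Trav5, Trav7 and Trav12 complete the 10 most frequent subgroups, which summed to 90.3% as the mean over libraries, and 20 of 21 subgroups were above 0. No library lay apart from both others in any of the 10. The widest relative spread was in Trav7, with 13 (5.75%), 2 (1.03%) and 14 cells (5.88%).

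**Figure D5:**
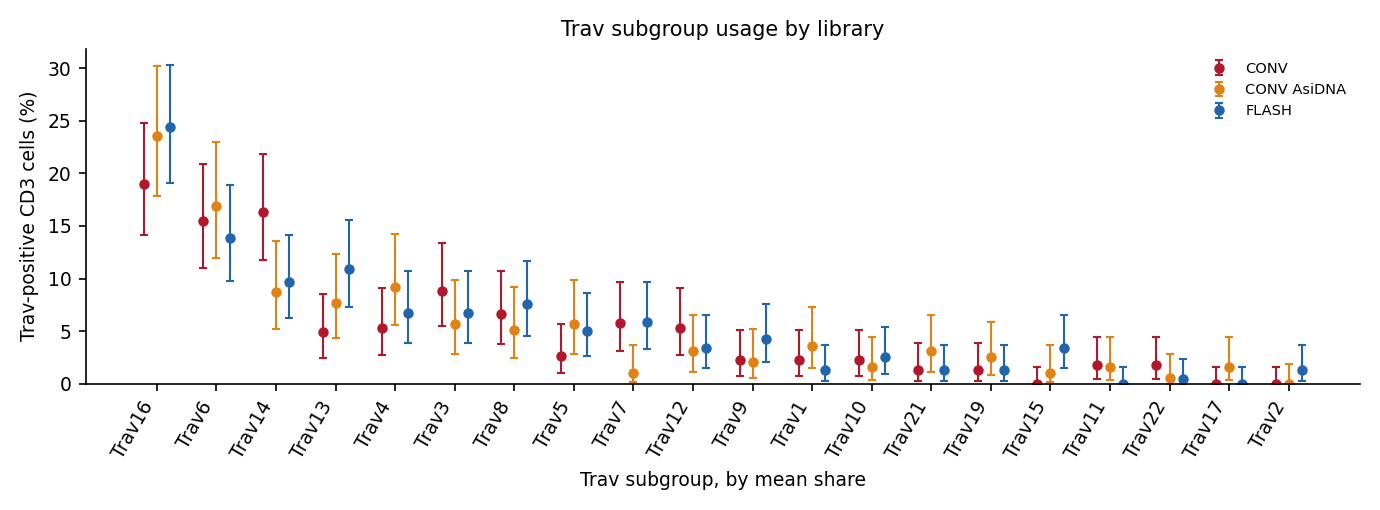
Share of Trav-positive CD3 cells (%) above 0 for each Trav subgroup, by library, with exact 95% intervals over cells. Trav16 leads in all 3 libraries (19.0% to 24.4%), and no subgroup has a library apart from both others.

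Trav16 was less frequent in the Cd4 gate (21.3%, 12.2% and 13.8% of Trav-positive cells) than in the Cd8 gate (22.5%, 25.4% and 34.3%) in each library, but the mean bounds overlapped (6.98 to 29.1 and 18.1 to 38.5). The difference between the gates was therefore not resolved at this number of cells. For Trav subgroups the Simpson index was 10.2, 11.2 and 9.80. It was 11.8, 10.1 and 7.84 in the Cd4 gate and 10.2, 12.1 and 12.9 in the Cd8 gate, so for Trav it was higher in the Cd4 gate for CONV and lower for CONV AsiDNA and FLASH.

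Few cells showed more than 1 V gene of a chain. More than 1 Trbv gene was above 0 in 8 (3.69%), 8 (4.79%) and 7 (3.02%) Trbv-positive cells, and 7 of these 23 cells joined a Trbv12 with a Trbv13 gene, which lie together within chr6:41113550-41130585. More than 1 Trav gene was above 0 in 7 (3.10%, 1.25 to 6.28), 10 (5.13%, 2.49 to 9.23) and 24 (10.1%, 6.57 to 14.6) Trav-positive cells. FLASH was highest for Trav and apart from CONV but not from CONV AsiDNA. The share with an alpha gene was nearly the same in cells with and without a beta gene for FLASH. It was higher in cells with a beta gene for CONV and CONV AsiDNA, and this difference was not tested. The cells without a beta gene include most cells of the Trdc gate. A Trav gene was above 0 in 18.0%, 25.1% and 19.8% of Trbv-positive cells and in 15.7%, 18.7% and 19.4% of the others.

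The alpha segments of invariant T cells were seen in few cells. Trav11, used by invariant natural killer T cells, was above 0 in 4, 3 and 0 CD3 cells, none of them with Cd4 or Cd8b1. Of these 7 cells, 4 had Zbtb16, the transcription factor of innate-like T cells, above 0, which is 4 of 241 Zbtb16-positive cells against 3 of 3375 others. Trav1, used by mucosal-associated invariant T cells, was above 0 in 5, 7 and 3 CD3 cells, 5 of them with Zbtb16. No order of the libraries can be read from such counts.

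Genes of receptor assembly were above 0 in some CD3 cells. Rag1, Rag2 or Dntt, which cut and extend V segments in developing lymphocytes, was above 0 in 34 (2.41%), 2 (0.203%) and 14 (1.15%) CD3 cells, and of these 12 of 34, 1 of 2 and 6 of 14 had both Cd4 and a Cd8 gene above 0. A V gene was above 0 in 18, 0 and 8 of them, and Trdv4 in none. With these cells left out, an alternative chosen after the data were seen, no call on Trbv or Trav usage, on Trbv2 or on Trgv2 changed. Where these cells came from was not tested.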

How the data were processed

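Single cell suspensions of 3 irradiated mouse lungs were sequenced with a 3′ droplet chemistry. The submitters' processing notes name Cell Ranger 6.0.0 and mm10, and the study's methods name R and Seurat. The authors deposited, for each gene and cell, a natural log value, ln(1 + a whole number), and each was converted back to that number, called the adjusted count. How depth was adjusted and background removed before deposit was not given in the sources used here, so 0 means only listed at 0, and no count model was used although the plan had assumed counts. Another table with 12 columns of per-sample values that match no sample, and 3 tables that hold only the submitters' comparisons, were not used.

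The members and gene lists were chosen with earlier results of these data known. After filters and Scrublet, 6370, 6980 and 6265 cells were kept. Scrublet marked 0.0157%, 0.0143% and 0.0319% of cells and thus did not work as a doublet filter, so leaving out the 6% of cells with the highest scores was an alternative. Barcodes shared between libraries numbered 16, 9 and 17 for the 3 pairs, and no shared barcode was a CD3 cell in both. Cells were clustered together with scanpy 1.11.5 and named from markers. A gene counted as above 0 from an adjusted count of 1. Shares carry exact Clopper-Pearson 95% intervals (scipy 1.17.1). For gate comparisons the shares and bounds were averaged over libraries. Levels are adjusted CPM (per 1000000 of the CD3 cells' sum), with 10 added before log2 ratios, which understates changes of low genes. The genes named are the 10 Trbv genes and 10 Trav subgroups with the largest mean share, every Trdv and Trgv gene in CD3 cells, Trav11, Trav1, genes with a library or a gate apart (at least 20 CD3 cells) and members of the lists. Genes and sequences were matched by symbol to GENCODE M21 on GRCm38, the assembly of mm10, and identity was computed with edlib 1.3.9.post1. The steps were tested on simulated data. Alternatives changed the cells kept, the gates, the value that counts as above 0, the depth (thinned to 1000 adjusted counts per cell), the prior and the Trgv symbols, with some added after seeing the data. Some members of the gene lists are not reported here.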

Additional observations from a re-analysis of the deposited data

How the results depend on the processing

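In all, 61 results were recomputed under 13 alternative settings, which gave 337 values. A share counted as kept within the 95% interval of the reported share, and a count, difference or log2 ratio within 1.5 times the reported value, with a difference also keeping its call. By this tolerance 264 values were kept, 73 moved and 0 reversed their direction. Trdv4 kept CONV apart from both other libraries under every alternative that was run on its share of CD3 cells. Values below are for CONV, CONV AsiDNA and FLASH in that order.

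Requiring a value of at least 2 gave shares of CD3 cells of 3.76%, 5.27% and 5.08% for Trav, 1.99%, 1.62% and 2.78% for Trbv and 10.1%, 9.53% and 7.29% for Trgv, and of 7.88% in CONV and 1.72% in FLASH for Trdv. It gave 0.302%, 0.3003% and 0.218% for any V gene in cells without CD3 genes, and more than 1 gene in 0, 0 and 0% of Trbv-positive and 0, 0 and 4.84% of Trav-positive cells. Thinning each cell to 1000 adjusted counts, which left out no cell, gave 6.60%, 7.10% and 7.13% for Trav, 5.11%, 5.98% and 6.06% for Trbv, 7.10%, 2.54% and 1.47% for Trdv and 8.52%, 7.51% and 5.57% for Trgv. It gave more than 1 Trbv gene in 1.39%, 0 and 0% of cells. The number of V genes or subgroups separated between the Cd4 and Cd8 gates went from 2 to 1 with exactly 1 gene of the chain per cell, with clusters in place of gates and with a value of at least 2. Adding the Tcrg-V symbols to Trgv2 in the Trdc gate gave 72.2% in CONV and 70.7% in FLASH. Thinning, chosen for this gate after seeing the data, gave 54.4% in CONV and 17.2% in FLASH for Trdv4 and 23.7%, 32.8% and 17.2% for Trgv2. With 1 added in place of 10 before the log2 ratios, 6, 4 and 5 V genes were past 2-fold for CONV over CONV AsiDNA, CONV over FLASH and CONV AsiDNA over FLASH, out of 32 tested. Of all 10167 genes tested, 13.7%, 13.7% and 10.7% were past 2-fold at that setting. Fewer reads per gene are counted by construction when cells are thinned or values of 1 are left out, and for the other changes the cause was not tested.

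No paired analysis was possible because each condition has 1 library. The main limits are that 1 mouse stands for each condition, that V genes are far from the sequenced 3′ end, that copies of Trav genes share sequence, and that most V genes rest on fewer than 20 cells.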

Other observations

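Trav22 accounted for all Trav detection in NK-like cells without CD3 genes, where it was above 0 in 2, 6 and 3 cells of CONV, CONV AsiDNA and FLASH. Trdv2-2 was above 0 in 4, 6 and 9 of these cells. Trdc was above 0 in 3, 48 and 23 NK-like cells and Tcrg-C4 in 46, 64 and 35 ILC2-like cells without CD3 genes, so transcripts of the delta and gamma loci in cells listed without CD3 genes extended beyond the V genes.

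Traj18, the joining segment that invariant natural killer T cells use with Trav11, was above 0 in 3, 5 and 5 CD3 cells, 5 of them with Zbtb16 above 0. It was chosen after its values were seen. Areg, the gene of the growth factor amphiregulin, was above 0 in 18.8%, 3.33% and 0% of the Trdc gate cells with Trdv4, with overlapping intervals, and in 2.78%, 0% and 0% of those without.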
